A study of Mus musculus with 39 samples.

Results

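The genes described here are those by which mesothelium and malignant mesothelioma are usually recognised, followed across tumours of the mouse mesothelioma line AB1-HA. They were taken by gene symbol from a list of 10. Of the 10, 7 had a row in the table of 39676 genes and are described below, namely Wt1, Upk3b, Pdpn, Calb2, Cdkn2a, Nf2 and Bap1. Msln, Krt8 and Krt18 were not analysed here. AB1-HA cells were grown under the skin of BALB/c mice and 39 whole tumours were sequenced, so that every value is a sum over tumour cells and host cells. The 10 PBS tumours came from mice given PBS. The 9 Tretinoin tumours came from mice given tretinoin, a retinoic acid receptor agonist, at 5 mg/kg daily for 5 days from day 4. The 10 ICT tumours came from mice given immune checkpoint therapy, 100 ug of anti-CTLA-4 and 100 ug of anti-PD-L1, starting on day 7. The 10 Tretinoin+ICT tumours came from mice given both, and the labels divide them into 6 tumours of responders and 4 of non-responders. All 39 tumours were resected on day 9. In the paper, response was read on the tumour left in place on the opposite flank, not on the resected tumour. The comparisons ask what the treatments, alone and together, changed in the tumour.

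Mesothelium is a sheet of mesoderm-derived cells that carries epithelial and mesenchymal features at once. Its cells make the transcription factor Wt1, the surface glycoproteins mesothelin and podoplanin (Pdpn) and the membrane protein uroplakin 3B (Upk3b). They also make the calcium-binding protein calretinin (Calb2) and simple-epithelium keratins. Several of these proteins serve as stains for mesothelioma in the clinic. Sarcomatoid mesothelioma, the spindle-celled form, often loses part of this set. Mesothelioma typically carries losses rather than activating mutations, and the genes hit most often are Cdkn2a, which encodes the cell-cycle inhibitors p16Ink4a and p19Arf, Nf2, which encodes merlin, an activator of the Hippo kinases that restrain Yap1 and Wwtr1, and Bap1, a nuclear deubiquitinase that acts on histone H2A.

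The libraries held between 14033046 and 37951183 counts each, with a median of 18548168. As a check that tumours had received tretinoin, Cyp26b1, a retinoic acid-degrading enzyme, stood at 152 ± 35.1 normalized counts in PBS tumours (SD, n = 10), 5566 ± 849 in Tretinoin tumours (SD, n = 9), 324 ± 156 in ICT tumours (SD, n = 10) and 2310 ± 621 in Tretinoin+ICT tumours (SD, n = 10). A normalized count is a count divided by the library's size factor. The tumours' names fall into 8 series by their leading digit and each series holds a single treatment, so treatment and series cannot be told apart beyond the comparison of series pairs given below. The labels name each sample as a separate tumour but do not tie it to an animal, and p-values measure the spread between these tumours. Summed markers of leukocytes and myeloid cells (8 genes) had a median of 1105 CPM (counts scaled to a common library total, summed over the genes) in PBS tumours, 1200 in Tretinoin tumours, 1661 in ICT tumours and 1758 in Tretinoin+ICT tumours. PBS tumour 14 (1664 CPM), Tretinoin tumour 33 (2003 CPM) and ICT tumours 63 and 82 (2781 and 2184 CPM) stood above the rest of their groups, and results are given without them where that changes a call. In whole tumours, fewer cells of a type and less RNA per cell cannot be told apart.

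The AB1-HA tumours expressed only a part of the mesothelial set. To set genes side by side, levels are given here as CPM per kb of exon, the mean over all 39 tumours, with the percentile among 16415 protein-coding genes. Pdpn was the most abundant of the 7 at 40.4 CPM per kb, the 93.9th percentile. Nf2 followed at 23.8 (88.4th percentile) and Bap1 at 18.99 (85.1st percentile). Wt1 lay far below them at 0.271 (37.7th percentile), beside Cdkn2a at 0.191 (35.9th percentile) and Calb2 at 0.126 (33.6th percentile). Upk3b was at 0.00128 (13.8th percentile). The ranges over tumours of Pdpn, Nf2 and Bap1 do not reach those of Wt1, Cdkn2a and Calb2, which overlap each other.

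**Figure D1:**
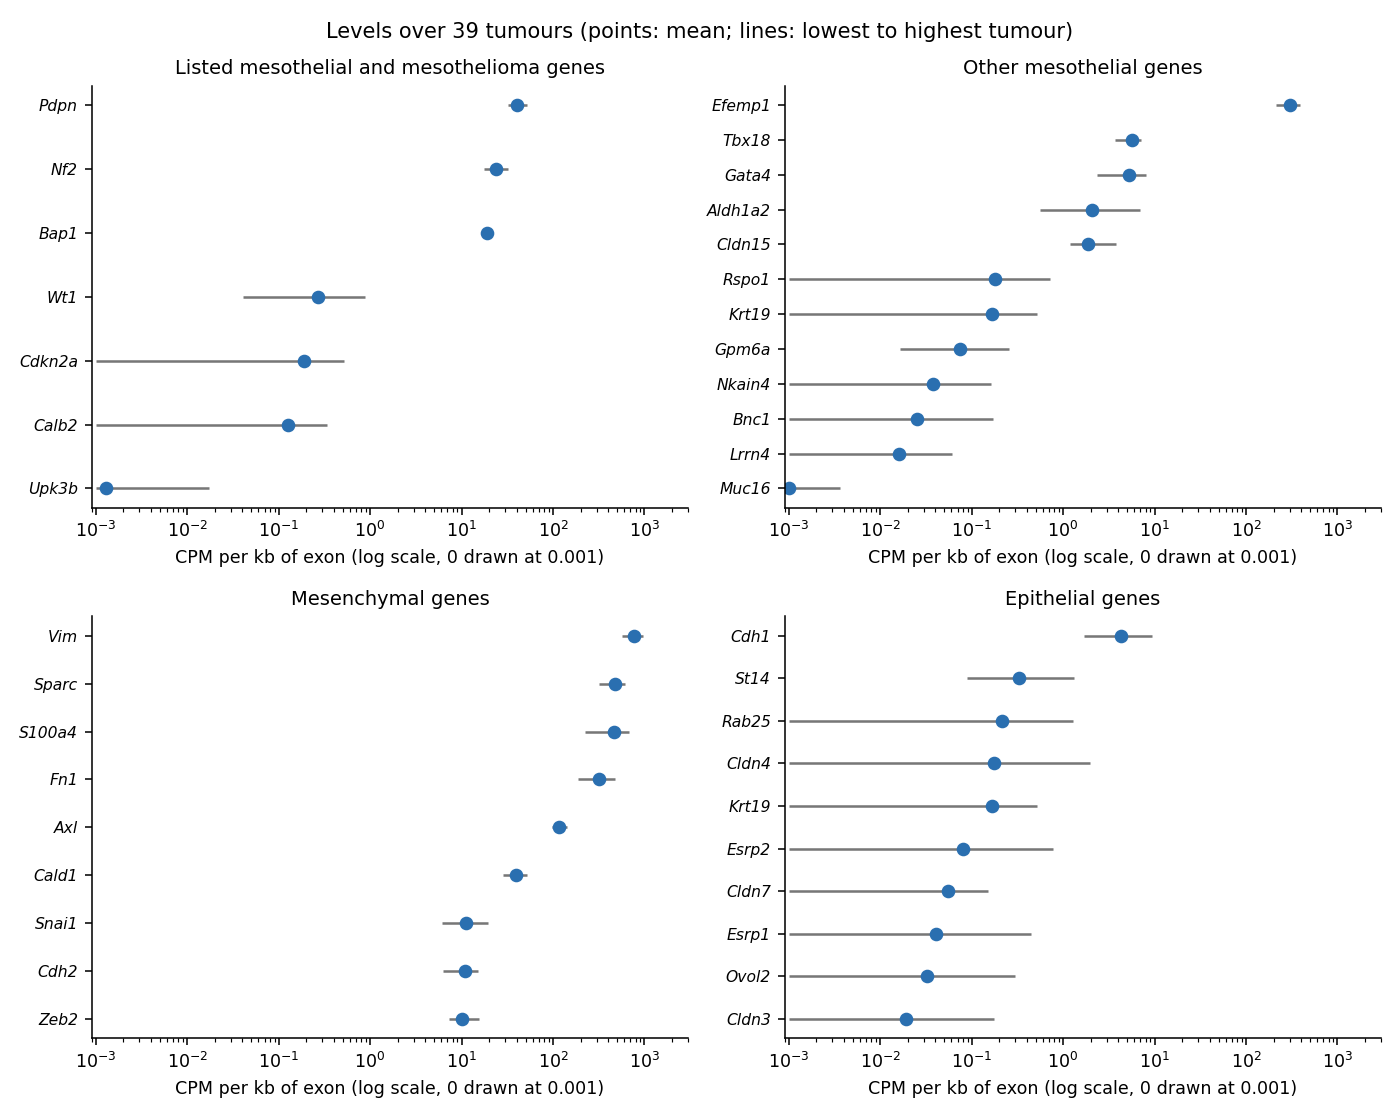
Levels in CPM per kb of exon (horizontal log scale) of 7 listed genes and of other mesothelial, mesenchymal and epithelial genes, with the mean over 39 tumours as a point and the lowest to highest tumour as a line. Pdpn, Nf2 and Bap1 sit between 18.99 and 40.4 on average, Vim is at 767 and most epithelial genes lie below 1.

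In GENCODE M21 (GRCm38) the genes lie apart from one another except for Pdpn and Cdkn2a, which share chromosome 4. Wt1 spans chr2:105126529-105173616 on the plus strand, Upk3b chr5:136038496-136046487 on the plus strand and Bap1 chr14:31251450-31259944 on the plus strand. Pdpn spans chr4:143267431-143299564, Cdkn2a chr4:89274471-89294653, Nf2 chr11:4765845-4849536 and Calb2 chr8:110137502-110168210, all on the minus strand. Counts are per gene, so no isoform is separated.

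Upk3b was all but undetected. It had 3 counts in all 39 tumours together, 1 in a PBS tumour and 1 in each of 2 ICT tumours, and 36 tumours had none. No count was seen in the Tretinoin and Tretinoin+ICT tumours, and 0 counts of 165691754 and of 206396338 allow up to 0.0181 and 0.0145 CPM. No change in Upk3b was detectable at this depth.

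Calretinin RNA was close to the limit of detection. Calb2 had 163 counts in all, with 4 tumours at 0 and a highest count of 14. Its normalized counts ran from 0 to 8.76 in PBS tumours, with a mean of 2.39 ± 2.44 (SD, n = 10), and averaged 3.94 ± 2.73 in Tretinoin tumours (SD, n = 9), 4.24 ± 3.15 in ICT tumours (SD, n = 10) and 5.51 ± 3.09 in Tretinoin+ICT tumours (SD, n = 10). The groups overlapped. Calb2 was too low for the count filter and was not part of the main test. With no filter, edgeR gave a log2 fold change of 1.18 (SE 0.48, adjusted p = 0.0735) for Tretinoin+ICT against PBS, and DESeq2 gave 1.22 (SE 0.52, adjusted p = 0.0480).

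In wider lists, mesenchymal genes stood at higher levels than epithelial genes. Of 16 further mesothelial genes, 13 were in the table. Efemp1, an extracellular matrix fibulin, was at 305 CPM per kb, the 99.5th percentile. Tbx18 and Gata4, transcription factors of coelomic mesothelium, were at 5.65 and 5.25, the retinoic acid-making enzyme Aldh1a2 at 2.04 and the tight-junction protein Cldn15 at 1.86. The surface genes Lrrn4, Nkain4 and Muc16 had 45, 36 and 2 counts over all tumours. The keratins Krt7 and Krt19 had 530 and 231. All 10 mesenchymal genes in the table passed the filter in every comparison. Vim, which encodes the intermediate filament vimentin, was at 767 CPM per kb (99.9th percentile), the matrix proteins Sparc and Fn1 at 475 and 316, and the receptor tyrosine kinase Axl at 116. Of the epithelial genes, Cdh1, which encodes E-cadherin, was at 4.26, and Esrp1, Ovol2 and Cldn3 were at 0.0405, 0.0328 and 0.0191. Fibroblast markers were abundant as well, with a sum over 8 genes between 11956 and 26245 CPM, and how much of the mesenchymal signal came from host fibroblasts was not tested.

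Wt1 was the listed gene that changed most. It is a zinc-finger transcription factor that mesothelial cells keep from the embryo onwards. In PBS tumours its normalized count ran from 4.67 to 18.2 with a median of 12.9, and in Tretinoin tumours from 10.1 to 46.5 with a median of 23.1. In ICT tumours it ran from 13.04 to 54.5 with a median of 28.9, and in Tretinoin+ICT tumours from 12.3 to 100.5 with a median of 62.9. Of the Tretinoin+ICT tumours, 9 of 10 lay above every PBS tumour, as did 5 of 9 Tretinoin and 7 of 10 ICT tumours. All groups overlapped with the PBS tumours at their lower end. Group means were 11.1 ± 4.86 (SD, n = 10) for PBS, 23.9 ± 12.8 (SD, n = 9) for Tretinoin, 29.6 ± 14.6 (SD, n = 10) for ICT and 57.7 ± 33.4 (SD, n = 10) for Tretinoin+ICT. These are small numbers of reads, between 5 and 165 raw counts a tumour.

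**Figure D2:**
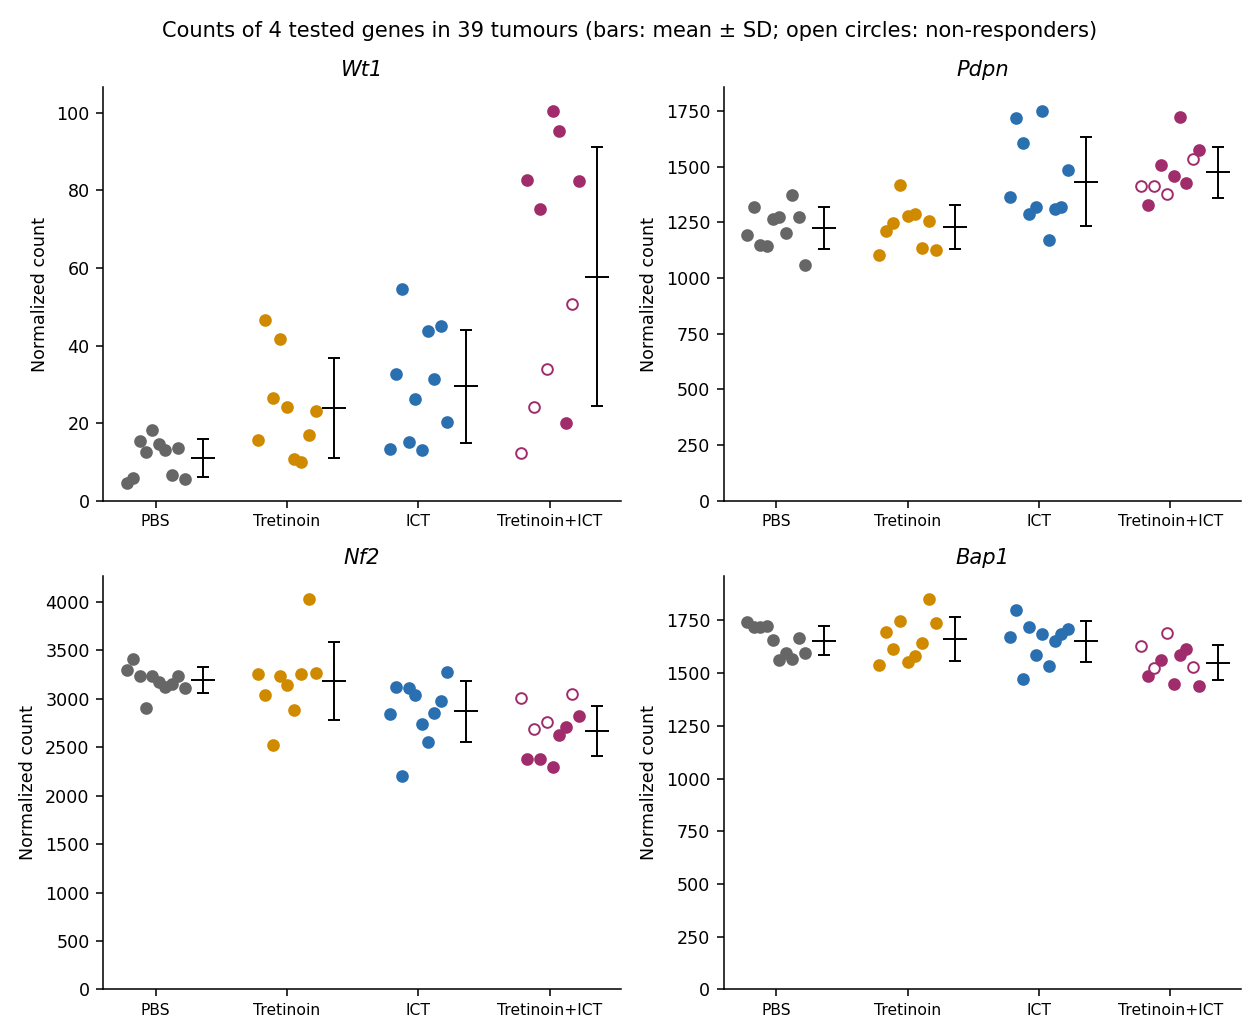
Normalized counts (vertical axes, from 0) of Wt1, Pdpn, Nf2 and Bap1 in each of 39 tumours by treatment, with mean and SD as bars beside the points and non-responders as open circles. Wt1 spans 4.67 to 18.2 in PBS tumours and reaches 100.5 in the combination, while Bap1 stays between 1437 and 1850 throughout.

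Tests were made with edgeR's quasi-likelihood test with Benjamini-Hochberg adjustment over all genes tested, and a gene passed at an adjusted p below 0.05. In Tretinoin against PBS, 1 of the 4 listed genes tested passed and it was higher, where 11.5% of 14340 genes were higher, 8.95% lower and 20.4% either. At a log2 fold change of at least 1 the gene still passed, beside 1.49% of genes higher and 0.132% lower. Wt1 rose by 1.12 on the log2 scale (SE 0.31, adjusted p = 0.0157). The name series gave different sizes of change, and the difference between them was not tested. Tretinoin series 3 averaged 30.9 ± 12.8 normalized counts (SD, n = 5) and series 7 15.2 ± 6.06 (SD, n = 4), beside 11.4 ± 5.89 and 10.7 ± 4.26 for the PBS series (SD, n = 5 each). Against PBS series 1 and 5, series 3 gave log2 fold changes of 1.43 and 1.52 (adjusted p = 0.0455 and 0.0189) and series 7 gave 0.39 and 0.48 (adjusted p = 0.651 and 0.506). The other 3 genes tested differed from PBS by less than their error, with 95% intervals of the log2 fold change from -0.10 to 0.11 for Pdpn, from -0.12 to 0.11 for Nf2 and from -0.07 to 0.08 for Bap1.

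In ICT against PBS, 2 of the 4 genes tested were higher and 1 lower, where 14.1% of 14155 genes were higher, 7.15% lower and 21.2% either. At a log2 fold change of at least 1, Wt1 alone passed, beside 2.28% of genes higher and 0.0636% lower. Wt1 rose by 1.40 (SE 0.30, adjusted p = 0.00443), and every ICT tumour lay above the PBS median. The log2 fold changes between single series ran from 1.31 to 1.49, and 1 of the 4 series pairs passed alone. Pdpn rose and Nf2 fell by much smaller amounts, given below. In Tretinoin+ICT against PBS, 2 of the 4 were higher and 2 lower, where 25.7% of 14265 genes were higher and 24.5% lower and 50.3% either. All 4 were therefore called in a comparison that called about every other gene. Wt1 rose by 2.39 (SE 0.37, adjusted p = 2.7e-05), with 4 of 4 series pairs passing between 2.003 and 2.71. With a log2 fold change of at least 1 asked for as well, Wt1 alone of the 4 passed, where 5.45% of all genes were higher and 0.47% lower.

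Whether the combination exceeded each agent alone was asked next. In Tretinoin+ICT against Tretinoin, 2 of the 4 genes tested were higher and 1 lower, beside 12.3% and 9.01% of 14393 genes (21.4% either). Wt1 rose by 1.27 (SE 0.38, adjusted p = 0.0250) and alone passed at a log2 fold change of at least 1, beside 1.87% of genes higher and 0.215% lower. Across series pairs that log2 fold change ran from 0.56 to 2.22, with 1 of 4 passing. In Tretinoin+ICT against ICT, 0 of the 4 passed in edgeR and 0 in DESeq2, with 2 at an unadjusted p under 0.05, beside 1.57% of 14202 genes higher, 0.422% lower and 1.99% either, or 0.366% and 0.0282% at a log2 fold change of at least 1. The Wt1 log2 fold change there was 0.98 (SE 0.36, adjusted p = 0.175), with a 95% interval from 0.27 to 1.68. Without tumours 14, 33, 63 and 82, 2 of the 4 passed, Wt1 at 1.23 (adjusted p = 0.0372) and Bap1 at -0.13 (adjusted p = 0.0358). The genes called rose from 223 higher and 60 lower to 1372 higher and 1048 lower. Of these tumours only ICT tumours 63 and 82 belong to this comparison. They had 54.5 and 43.7 normalized counts of Wt1, beside an ICT median of 28.9. Their Bap1 was the lowest of the ICT tumours, at 1471 and 1532. Tretinoin+ICT tumours 41 and 42 stayed in, with leukocyte sums of 2471 and 2133 CPM. The choice was made after seeing the data and took tumours from ICT alone, so these 2 calls cannot decide whether the combination exceeded ICT. The interaction, which asks whether the effects of tretinoin and ICT differ from adding on the log2 scale, was -0.14 for Wt1 (SE 0.48, adjusted p = 0.951), and 0 of the 4 passed in edgeR or DESeq2, with 0 at an unadjusted p under 0.05, beside 0.0401% higher, 0.267% lower and 0.307% either of 14977 genes, or 0.00668% and 0.0534% at a log2 value of at least 1.

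**Figure D3:**
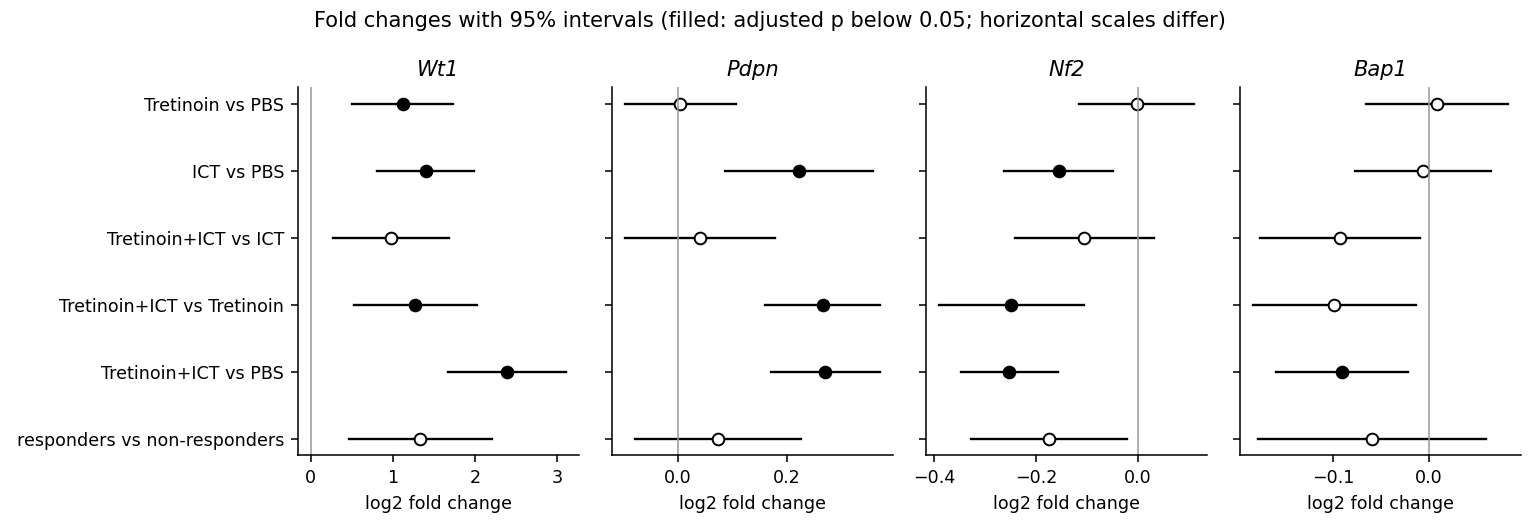
Log2 fold changes (horizontal axes, which differ between genes) of 4 tested genes in 6 comparisons, with 95% intervals as lines and filled points where the adjusted p was below 0.05. The Wt1 intervals lie above 0 in all 6, and the Pdpn change is near 0 for Tretinoin against PBS but 0.22 to 0.27 in the comparisons of ICT-treated with ICT-free tumours.

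Within the combination, Wt1 was unevenly spread between outcomes. Among responders the lowest, median and highest normalized counts were 20.04, 82.6 and 100.5, and among non-responders the 4 tumours had 12.3, 24.2, 33.9 and 50.7. Of the responders, 5 of 6 lay above every non-responder, and the exception was tumour 43. Means were 76.0 ± 29.0 (SD, n = 6) and 30.3 ± 16.2 (SD, n = 4). The log2 fold change of 1.33 (SE 0.44) did not pass in edgeR (adjusted p = 0.115). In DESeq2 it was 1.33 and passed (adjusted p = 0.0225), and without tumour 43 it passed in edgeR as well at 1.502 (adjusted p = 0.0168). Tumour 43 was the lowest responder, so leaving it out raises the difference. Of the 10 edgeR fits that each left out 1 tumour, this one alone passed, and the highest adjusted p was 0.292. With name series as a block the log2 fold change was 1.24 and did not pass in edgeR (adjusted p = 0.168). No gene of 14604 was called by edgeR in this comparison (0% higher and 0% lower), while 3302 had an unadjusted p under 0.05 and DESeq2 called 864 higher and 537 lower. Of the 4 genes tested, 0 passed in edgeR, 2 had an unadjusted p under 0.05 and 1 passed in DESeq2. Leukocyte marker sums ran from 1638 to 2471 CPM in responders (median 2078) and from 1333 to 1843 CPM in non-responders (median 1536), which overlap, and 0 of 7 of these genes passed in edgeR, with 4 at an unadjusted p under 0.05. Their part in the Wt1 values was not tested.

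Over all 39 tumours, taken as deviations from the 4 group means, the genes most like Wt1 among 13347 were Il33 (r = 0.77), an alarmin cytokine, Serpinb2 (r = 0.76), a plasminogen activator inhibitor, and Rtn4rl2 (r = 0.75), a Nogo receptor homologue. Their r without subtracting group means was 0.86, 0.83 and 0.85. Wt1 went with the summed leukocyte and myeloid markers at r = 0.45 and with the dividing-cell markers at r = -0.62 on the same within-group scale. Tumours share library depth and cell make-up along these axes, and the correlations are descriptions.

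Of the other mesothelial genes, 6 were tested in each comparison between treatments. Aldh1a2 rose by 0.65 with Tretinoin (SE 0.22, adjusted p = 0.0424), by 0.82 with ICT (SE 0.24, adjusted p = 0.0202) and by 1.78 with both (SE 0.30, adjusted p = 8.0e-05) against PBS. It was, like Wt1, higher in Tretinoin+ICT than in Tretinoin tumours, by 1.13 (SE 0.32, adjusted p = 0.0190). Cldn15 rose by 0.61 with Tretinoin (SE 0.15, adjusted p = 0.00785) and by 0.45 with both (SE 0.11, adjusted p = 0.00270). In Tretinoin+ICT against PBS, Tbx18 fell by 0.39, Gata4 fell by 0.34 and Efemp1 fell by 0.23. Tbx18 also fell by 0.23 with Tretinoin alone, and Gata4 fell by 0.47 with ICT alone and by 0.34 in Tretinoin+ICT against Tretinoin. Between Tretinoin+ICT and PBS 2 of the 6 were thus higher and 3 lower, with a median of -0.10 beside -0.01 over all genes, of which 25.7% were higher and 24.5% lower.

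Epithelial genes were few and low. Of 12 in the table, 3 passed the filter. Cdh1 rose by 0.89 with ICT (SE 0.12, adjusted p = 0.000138) and by 1.36 with both agents (SE 0.17, adjusted p = 3.8e-06), and St14, which encodes the membrane protease matriptase, rose by 1.40 with both (SE 0.36, adjusted p = 0.00298). Summed epithelial markers ran from 10.1 to 18.3 CPM in PBS tumours and from 20.7 to 63.6 CPM in Tretinoin+ICT tumours. The highest of these sums were 63.6 and 58.7 CPM in responder tumours 42 and 22. These tumours also had the highest skin keratinocyte sums of all, 42.2 and 54.2 CPM. The next highest keratinocyte sum was 28.1 CPM, in ICT tumour 82. The next highest epithelial sums came with low keratinocyte sums. Responder tumour 24 had 50.6 CPM of epithelial beside 9.44 CPM of keratinocyte markers, and Tretinoin tumour 33 had 41.1 beside 8.37 CPM. Of the 10 mesenchymal genes, 0 were higher and 3 lower in Tretinoin+ICT against PBS, with a median of -0.10, and the share of all genes called lower was close to that, at 24.5%. S100a4, a calcium-binding protein of motile cells, fell by 0.66 (SE 0.12, adjusted p = 0.000148), N-cadherin (Cdh2) fell by 0.40 and Sparc fell by 0.27. With Tretinoin alone 2 of the 10 were lower, where S100a4 fell by 0.62 and Vim fell by 0.27, and with ICT alone 1, where Sparc fell by 0.36, beside 8.95% and 7.15% of all genes called lower. Basal keratin genes, which skin keratinocytes and mammary epithelium also make, were patchy, with Krt5 and Krt14 at 0 in 12 and 16 of 39 tumours. Krt5 passed in Tretinoin+ICT against PBS, at a log2 fold change of 2.68 (SE 1.04, adjusted p = 0.0388), and the part of skin in the epithelial values was not tested.

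Podoplanin, a mucin-like glycoprotein of mesothelium that lymphatic endothelium, fibroblasts and keratinocytes also make, had the highest level of the 7 listed genes measured. Its promoter window, 250 bases before to 50 after the RefSeq start (GRCm38.p6, chr4:143299515-143299814, minus strand), is shown because the gene was higher in ICT-treated than in PBS tumours. Capitals mark the retinoid receptor motif AGGTCA and the GC box GGGCGG on either strand. Pdpn holds 1 AGGTCA and 2 GC boxes. Of 32851 such windows, 16.3% hold at least 1 AGGTCA and 35.7% hold at least 1 GC box. A match is a description of the letters and not a bound site.
Pdpn: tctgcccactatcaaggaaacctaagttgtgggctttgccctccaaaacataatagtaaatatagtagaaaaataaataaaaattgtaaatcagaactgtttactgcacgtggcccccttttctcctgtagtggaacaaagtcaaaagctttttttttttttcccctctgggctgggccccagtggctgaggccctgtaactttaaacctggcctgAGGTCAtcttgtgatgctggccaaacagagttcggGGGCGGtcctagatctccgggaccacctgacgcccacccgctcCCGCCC

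Pdpn ran from 1058 to 1372 normalized counts in PBS tumours (median 1234) and from 1105 to 1418 in Tretinoin tumours (median 1245). It ran from 1170 to 1751 in ICT tumours (median 1341) and from 1327 to 1720 in Tretinoin+ICT tumours (median 1442). The Tretinoin tumours lay within and beside the PBS range, and 9 of 10 Tretinoin+ICT tumours lay above every PBS tumour. Means were 1225 ± 93.5 (SD, n = 10), 1229 ± 99.0 (SD, n = 9), 1433 ± 198 (SD, n = 10) and 1475 ± 114 (SD, n = 10) in the same order. Pdpn rose by 0.22 in ICT against PBS (SE 0.07, adjusted p = 0.0278), a 1.17-fold change, and by 0.27 in Tretinoin+ICT against PBS (SE 0.05, adjusted p = 0.000193). Against Tretinoin, the combination was higher by 0.27 (SE 0.05, adjusted p = 0.00330). Tretinoin+ICT and ICT differed by 0.04, with a 95% interval from -0.10 to 0.18, and responders and non-responders by 0.07, with an interval from -0.08 to 0.23.

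The Pdpn call for ICT against PBS is a fragile one. It was lost without PBS tumour 13 or without ICT tumour 81 (log2 fold changes of 0.21 and 0.19, adjusted p = 0.0502 and 0.0541), and in 4 of 4 series pairs. The call for Tretinoin+ICT against PBS stood in 3 of 4 series pairs. Of the other cells that make podoplanin, lymphatic endothelial markers (6 genes) had summed medians of 25.9 CPM in PBS and 30.8 CPM in Tretinoin+ICT tumours, with Prox1 at 283 counts and Reln at 352 over all tumours, and skin keratinocyte markers had medians of 5.07 and 8.83 CPM. Fibroblast markers had medians of 22691 and 16045 CPM. The genes most like Pdpn within groups were the complement receptor C5ar1 (r = 0.60), the membrane glycoprotein Bsg (r = 0.53) and Cystm1 (r = 0.53), all looser than for the other genes tested, and Pdpn went with the leukocyte sum at r = 0.05.

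Nf2, which encodes merlin, moved the other way. Its window at the upstream RefSeq start (chr11:4849495-4849794, minus strand, GRCm38.p6) is shown for the same motifs beside Pdpn. It holds no AGGTCA and 1 GC box, on the reverse strand.
Nf2: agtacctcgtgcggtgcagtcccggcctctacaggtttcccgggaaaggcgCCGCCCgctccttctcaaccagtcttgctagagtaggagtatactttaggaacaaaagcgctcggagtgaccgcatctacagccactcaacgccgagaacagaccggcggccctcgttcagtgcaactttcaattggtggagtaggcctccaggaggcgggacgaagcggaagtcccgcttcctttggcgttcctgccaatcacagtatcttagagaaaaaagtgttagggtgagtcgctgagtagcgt

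Nf2 ran from 2907 to 3415 normalized counts in PBS tumours (median 3206), from 2525 to 4029 in Tretinoin tumours (median 3239), from 2203 to 3277 in ICT tumours (median 2918) and from 2300 to 3050 in Tretinoin+ICT tumours (median 2700). Of the Tretinoin+ICT tumours, 8 of 10 lay below every PBS tumour and 10 of 10 below the PBS median. Means were 3191 ± 134 (SD, n = 10) for PBS, 3184 ± 400 (SD, n = 9) for Tretinoin, 2873 ± 314 (SD, n = 10) for ICT and 2673 ± 258 (SD, n = 10) for both. Nf2 fell by 0.25 in Tretinoin+ICT against PBS (SE 0.05, adjusted p = 0.000254) and by 0.25 against Tretinoin (SE 0.07, adjusted p = 0.0216). In ICT against PBS it fell by 0.16 (SE 0.05, adjusted p = 0.0456). That last call was lost when any of 15 of the 20 tumours was left out (PBS tumours 11, 12, 13, 15, 51, 52, 53, 54 and 55 and ICT tumours 61, 63, 81, 82, 83 and 84), in 4 of 4 series pairs and in the fit of all 39 tumours (adjusted p = 0.0946). The fall in Tretinoin+ICT against PBS passed in 4 of 4 series pairs, and that against Tretinoin in 0 of 4.

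Between responders and non-responders Nf2 fell by 0.17, which did not pass (SE 0.08, adjusted p = 0.211). Responders spanned 2300 to 2823 normalized counts (median 2504). The 4 non-responders had 2688, 2764, 3010 and 3050. Of the responders, 4 of 6 lay below every non-responder.

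The level of Nf2 ran opposite to the leukocyte markers, tumour by tumour. In 4 of 4 treatment groups the tumour with the highest leukocyte and myeloid sum was the one with the lowest Nf2, namely PBS tumour 14 (2907 normalized counts), Tretinoin tumour 33 (2525), ICT tumour 63 (2203) and Tretinoin+ICT tumour 41 (2300). As deviations from group means over 39 tumours, the correlation was r = -0.86 (rho = -0.82, and r = -0.78 without the 2 tumours farthest from the median of the leukocyte sum). With fibroblast markers it was r = 0.79 and with mesenchymal genes r = 0.70. The genes most like Nf2 were Rcor2 (r = 0.94), a corepressor, Mprip (r = 0.93), a myosin phosphatase partner, and Fkbp10 (r = 0.92), a collagen chaperone, all higher in PBS than in Tretinoin+ICT tumours on average. The leukocyte markers moved with treatment. Against PBS, 6 of 7 tested were higher in ICT tumours, where 14.1% of all genes were higher. In Tretinoin+ICT tumours 7 of 7 were higher, where 25.7% of all genes were. The part of the leukocyte markers in the fall of Nf2 was not tested.

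**Figure D4:**
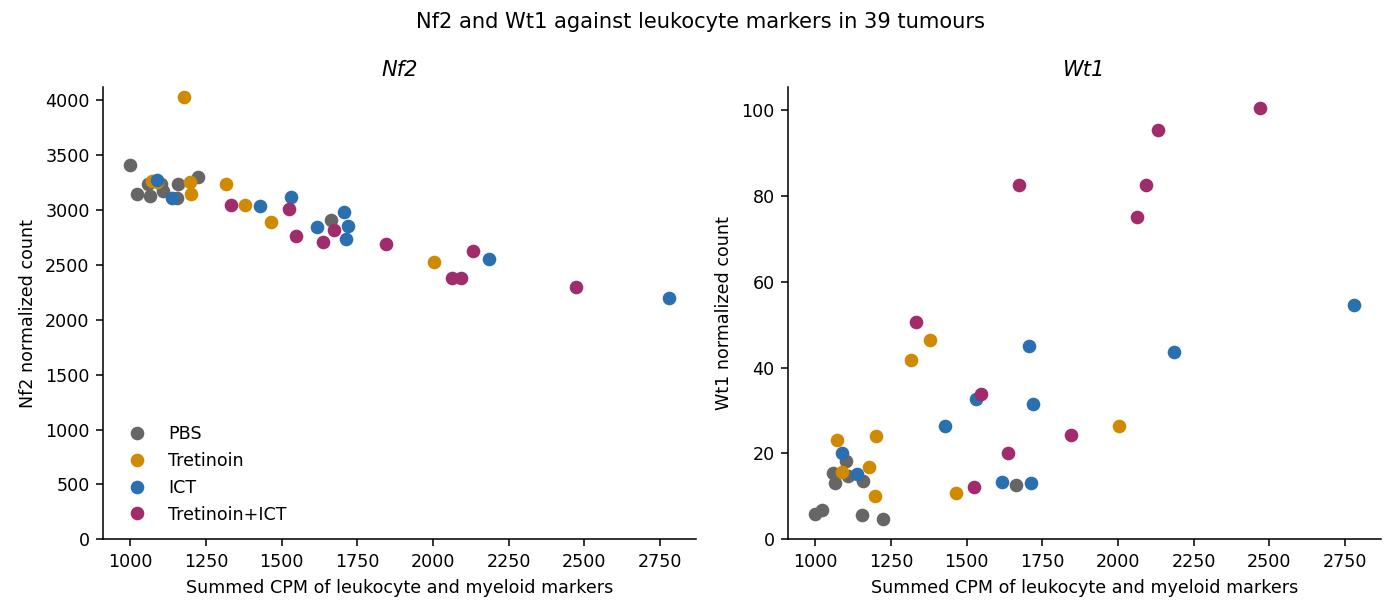
Normalized counts of Nf2 and Wt1 (vertical axes, from 0) against the summed CPM of 8 leukocyte and myeloid genes in 39 tumours, coloured by treatment. ICT tumour 63, with the highest sum of 2781 CPM, has the lowest Nf2 at 2203, and Wt1 ranges from 4.67 to 100.5.

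Around Nf2, 12 of 18 listed Hippo pathway genes were in the table and all 12 were tested. Tretinoin+ICT against PBS had 1 higher and 4 lower, with a median of -0.08 beside -0.01 over all genes, of which 25.7% were higher and 24.5% lower. The transcriptional coactivator Wwtr1 (Taz) fell by 0.41 (SE 0.09, adjusted p = 0.000604), its DNA-binding partners Tead2 and Tead1 fell by 0.35 and 0.34, and the kinase Stk3 fell by 0.15, while its paralogue Stk4, a kinase also used by lymphocytes, rose by 0.23 (SE 0.06, adjusted p = 0.00181). In ICT against PBS 1 was higher (Stk4) and 2 lower (Wwtr1 and Stk3), beside 14.1% and 7.15% of all genes. In Tretinoin against PBS 1 was higher and 3 lower, beside 11.5% and 8.95% of all genes. There Amotl2, a target and brake of Yap1, rose by 0.22, Tead4 fell by 0.37, Stk3 fell by 0.26 and Wwtr1 fell by 0.20. Yap1 itself was at 11.3 CPM per kb.

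Bap1 was the steadiest of the genes tested. It ran from 1563 to 1743 normalized counts in PBS tumours, from 1541 to 1850 in Tretinoin tumours, from 1471 to 1801 in ICT tumours and from 1437 to 1689 in Tretinoin+ICT tumours. Means were 1654 ± 69.9 (SD, n = 10), 1662 ± 103 (SD, n = 9), 1651 ± 96.5 (SD, n = 10) and 1550 ± 80.8 (SD, n = 10). Of the Tretinoin+ICT tumours, 6 of 10 lay below every PBS tumour. Bap1 fell by 0.09 in Tretinoin+ICT against PBS (SE 0.04, adjusted p = 0.0356), a change of 0.939-fold. That call was lost when any of 10 of the 20 tumours was left out (PBS tumours 12, 13, 15 and 54 and Tretinoin+ICT tumours 22, 23, 24, 41, 44 and 45) and stood in 1 of 4 series pairs. PBS series 1 averaged 1711 ± 32.3 and series 5 1596 ± 40.8 (SD, n = 5 each). In ICT against PBS the log2 fold change was -0.01, with a 95% interval from -0.08 to 0.06.

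Of 14 listed partners of Bap1 and other suppressors of mesothelioma, 13 were in the table and tested, and 0 were higher and 5 lower in Tretinoin+ICT against PBS, with a median of -0.12, where 25.7% of all genes were higher and 24.5% lower. The hedgehog receptor Ptch1 fell by 0.40 (SE 0.07, adjusted p = 0.000137), the forkhead factor Foxk2, which recruits Bap1 to DNA, fell by 0.24, the demethylase Kdm1b fell by 0.23 and the helicase Ddx3x fell by 0.15. Asxl1, a cofactor of Bap1, fell by 0.11 (SE 0.04, adjusted p = 0.0384). Ptch1 was also the one gene of this list to pass in Tretinoin+ICT against ICT, where it fell by 0.28 (SE 0.07, adjusted p = 0.0442). In that comparison 1.57% of all genes were higher and 0.422% lower. The genes most like Bap1 within groups were Fmnl3 (r = 0.79), a formin, Shc1 (r = 0.78), a signalling adaptor, and Ppp4r1 (r = 0.78), a phosphatase subunit, and Bap1 went with Nf2 at r = 0.59. With summed skeletal muscle genes Bap1 went at r = -0.61 and with summed adipocyte genes at r = -0.50. In Tretinoin+ICT against ICT, 0 of 7 skeletal muscle genes passed in edgeR. Of the 7, 5 had an unadjusted p under 0.05, as had 2571 of all 14202 genes. The part of muscle and fat in the Bap1 values was not tested.

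Cdkn2a was near the limit of detection throughout. The locus makes p19Arf from an upstream start and p16Ink4a from a downstream start on the minus strand of chromosome 4, with shared later exons, so counts per gene do not separate the transcripts. Both RefSeq start windows (GRCm38.p6, chr4:89294570-89294869 upstream and chr4:89282143-89282442 downstream) are shown because each feeds the same row of counts, with the same motifs in capitals. The upstream window is 77% G and C with 45 CpG dinucleotides, more than 98.1% of windows, and holds 3 GC boxes and no AGGTCA. The downstream window holds 12 CpG dinucleotides, 1 GC box and 1 AGGTCA.
Cdkn2a upstream: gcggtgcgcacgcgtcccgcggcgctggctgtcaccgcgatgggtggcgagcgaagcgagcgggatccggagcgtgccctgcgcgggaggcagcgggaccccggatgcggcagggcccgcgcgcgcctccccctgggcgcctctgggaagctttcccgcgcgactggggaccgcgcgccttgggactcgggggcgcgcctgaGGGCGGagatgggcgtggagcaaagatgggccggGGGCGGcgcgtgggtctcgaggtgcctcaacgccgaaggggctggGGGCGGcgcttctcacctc
Cdkn2a downstream: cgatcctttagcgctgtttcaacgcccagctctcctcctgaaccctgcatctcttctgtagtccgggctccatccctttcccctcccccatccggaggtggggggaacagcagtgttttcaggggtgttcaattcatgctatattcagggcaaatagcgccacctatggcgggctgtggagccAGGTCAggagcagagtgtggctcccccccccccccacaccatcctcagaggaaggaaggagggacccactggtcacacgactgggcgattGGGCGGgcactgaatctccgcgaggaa

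Cdkn2a had 165 counts over 39 tumours, with 2 tumours at 0 and a highest count of 15, which is 0.226 CPM with an exact Poisson 95% interval from 0.193 to 0.263 that covers counting error only. Normalized counts averaged 3.38 ± 2.17 in PBS (SD, n = 10), 2.69 ± 2.52 in Tretinoin (SD, n = 9), 5.09 ± 3.55 in ICT (SD, n = 10) and 5.10 ± 2.16 in Tretinoin+ICT tumours (SD, n = 10), and all groups overlapped. The gene failed the count filter. With no filter, edgeR gave 0.90 (SE 0.45, adjusted p = 0.223) for Tretinoin+ICT against Tretinoin and 0.60 (SE 0.35, adjusted p = 0.224) for Tretinoin+ICT against PBS.

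Expression around Cdkn2a on chromosome 4 was mixed. Within 3 Mb on each side, 50 protein-coding genes, Cdkn2a included, matched the annotation, of which 31, most of them in the type I interferon cluster, had a median of 0 and 14 a median above that of Cdkn2a. Mtap, an enzyme of methionine salvage that mesothelioma often loses together with Cdkn2a, starts 158 kb from Cdkn2a at lower coordinates and had a median of 3.92 CPM per kb (2.58 to 5.89 over tumours). Klhl9, 572 kb away on the same side, had 15.9. Of the 5 genes on the other side, Dmrta1 had 0.229 and Elavl2 0.150, beside 0.170 for Cdkn2a itself, Zfp352 and Izumo3 were at 0, and Gm12666, 2897 kb away, had 21.3. Host cells in the tumours also make Mtap, and no copy number was measured.

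**Figure D5:**
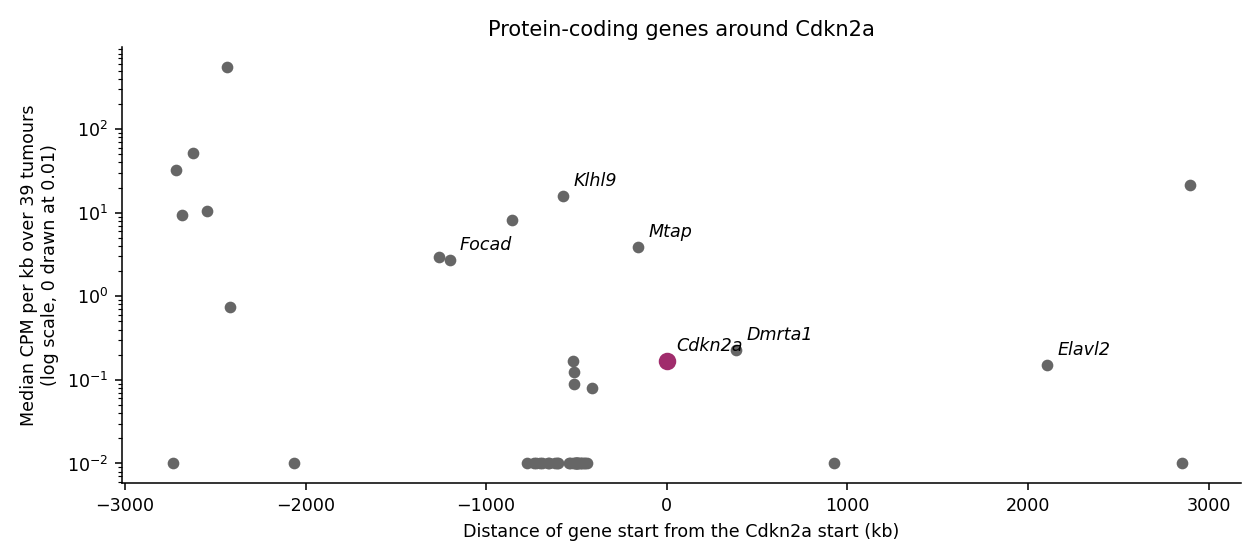
Median CPM per kb over 39 tumours (vertical log scale, 0 drawn at 0.01) of 50 protein-coding genes by the distance in kb of their start from the start of Cdkn2a, which is the large point. Mtap at 3.92 and Klhl9 at 15.9 stand above Cdkn2a at 0.170.

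Of 13 listed genes of the p16 and p19 pathway and this locus, 12 were in the table and all were tested. Tretinoin+ICT against PBS had 3 higher and 5 lower, with a median of -0.16, in a comparison that called 50.3% of all genes. The cyclin-dependent kinase inhibitor Cdkn1a, a target of p53, rose by 0.42 (SE 0.08, adjusted p = 0.000390), Mtap rose by 0.34 and Rb1 rose by 0.18. Among those that fell were Dmrta1 by 0.71, Cdk4, the kinase that p16Ink4a inhibits, by 0.32, and Trp53 by 0.23. The dividing-cell markers fell in the same comparison, 5 of 6, and their summed median went from 2055 CPM in PBS to 1713 CPM in Tretinoin+ICT tumours. Against Tretinoin, Cdkn1a rose in the combination by 0.49 (SE 0.10, adjusted p = 0.00370), Mtap by 0.38 and Rb1 by 0.30. With Tretinoin alone Cdk4 fell by 0.19 (SE 0.06, adjusted p = 0.0192), and with ICT alone Cdkn1a rose by 0.26 (SE 0.09, adjusted p = 0.0462).

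Markers of other cells that whole tumours hold are given for Tretinoin+ICT against PBS, which called 50.3% of all genes. Of 6 blood endothelial genes 2 were higher (Pecam1 and Plvap) and 2 lower (Kdr and Tek), of 8 fibroblast genes 1 was higher (Thy1) and 3 lower (Col3a1, Col1a2 and Dpt), and of 4 tested lymphatic endothelial genes 0 passed in edgeR, with 0 at an unadjusted p under 0.05. In edgeR 0 of 6 adipocyte and 0 of 7 skeletal muscle genes passed, with 0 of either at an unadjusted p under 0.05, while summed skeletal muscle genes ran from 401 to 4185 CPM over tumours. On the list of keratin, mammary and luminal genes, 1 was tested and higher, the basal keratin Krt5, which is also on the skin keratinocyte list. The milk protein genes Wap and Csn1s1 had no count in any tumour.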

How the data were processed

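For 39 whole tumours of AB1-HA cells, the authors obtained single-end reads, aligned them with HISAT2 2.0.4 to the mouse genome they name mm11 and counted them per gene with SummariseOverlaps. The deposited values are raw counts, whole numbers without normalization. The strand mode and the handling of multiply aligned reads are not given in the sources used here. The table lists 39676 genes (28827 with at least 1 count in some tumour), and 36719 identifiers (92.5%) matched GENCODE M21 (GRCm38), from which exon lengths and positions came. None of the 7 genes overlaps another gene there. Promoter windows came from RefSeq (GRCm38.p6), where 5 of the 7 matched by symbol. Wt1 and Calb2 did not.

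Groups follow the labels. Each comparison was fitted on its own tumours in edgeR 4.0.16 (R 4.3.3) with TMM factors, the default expression filter and the robust quasi-likelihood test, over all genes, with Benjamini-Hochberg adjustment. The interaction was fitted on all tumours. Standard errors are the log2 fold change over the root of F. Normalized counts use size factors of DESeq2 1.42.0, and CPM use TMM factors. Likeness is Pearson's r of log2 CPM with a prior count of 2, and the 3 genes with the highest r were named. From each marker list the counts and up to 4 passing genes a comparison were named, by size. Efemp1, Stk3, Rb1, Trp53 and Asxl1, the neighbours of Cdkn2a, and the list genes given by their levels or zeros, were named beyond that rule after their values were seen. The genes and lists were chosen with earlier results of these data known. Depth ranged from 14033046 to 37951183 counts, and at 0 counts a floor of 3 counts was used. Alternatives were DESeq2, other scaling and filters, one fit of all tumours, a fold minimum, series pairs, and leaving out each tumour. For responders against non-responders, name series as a block was another. On simulated data for Tretinoin+ICT against PBS (14265 genes), 89 of 100 genes changed by 1 and 97 of 100 changed by 2 on the log2 scale were recovered, with 7 false calls, and for responders against non-responders (14604 genes) 74 and 91, with 5 false calls. No smaller change and no difference between name series was simulated, so these rates do not cover changes as small as those of Pdpn, Nf2 and Bap1. Replicates were not identical, with pairwise r of log2 counts between 0.927 and 0.987.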

Additional observations from a re-analysis of the deposited data

Results flagged for a closer look

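Each of 24 sets of tumours (4 tested genes in 6 groups) was examined on the log2 and on the count scale. Of these, 2 held a tumour far from the rest by Dixon's test at the 95% level. Chance alone gives this in about 1 in 20 sets on 1 scale, and more often on either of 2. The sets also overlap, since responders and non-responders are part of the Tretinoin+ICT group. Responder tumour 43 had 20.04 normalized counts of Wt1, where the other 5 responders had 75.1 to 100.5, on either scale. Tretinoin tumour 74 had 4029 normalized counts of Nf2, where the other 8 Tretinoin tumours had 2525 to 3266, on the count scale alone.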

How the results depend on the processing

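In Tretinoin+ICT against PBS, Wt1, Pdpn and Nf2 kept direction and call under DESeq2, its size factors in edgeR, no filter, the fit of all 39 tumours and with each tumour left out in turn, and Pdpn and Nf2 also at 10 counts or more in every tumour, where Wt1 was not tested. Counts of passing genes changed under some settings. At 10 counts or more in every tumour, 0 passed in Tretinoin against PBS, where Wt1 was no longer tested either. Asking for a log2 fold change of at least 1 left 1 (Wt1) in ICT against PBS, in Tretinoin+ICT against Tretinoin and in Tretinoin+ICT against PBS. Without tumours 14, 33, 63 and 82, an alternative chosen after seeing the data, 2 passed in Tretinoin+ICT against ICT. DESeq2 called 1 (Wt1) for responders. Between single name series, with 4 or 5 tumours a side, Tretinoin series 7 gave 0 against either PBS series, ICT gave 0, 0, 0 and 1, Tretinoin+ICT against Tretinoin gave 0 in 3 of 4 pairs, and Tretinoin+ICT series 2 against PBS series 5 gave 2. Leaving out 1 tumour, counts ran from 1 to 3 in ICT against PBS (1 without tumour 13 or 81) and from 0 to 1 in responders against non-responders (1 without tumour 43). Without the low-count filter, Wt1 in Tretinoin+ICT against Tretinoin had an adjusted p of 0.0501, Nf2 in ICT against PBS 0.0752 and Bap1 in Tretinoin+ICT against PBS 0.0812. The remaining reversals were of log2 fold changes near 0 that passed no test. For Tretinoin against PBS, Pdpn became -2.01e-05 with DESeq2 size factors, -0.0075 with no filter, -0.0112 without the 4 tumours, and -0.0197 and -0.0452 for series 7 against 1 and 5. Nf2 became 0.0171 without the 4 tumours and 0.0574 and 0.0844 for series 7 against 1 and 5. Bap1 became -0.0043 with no filter, -0.0783 for series 3 against 1 and -0.0112 for series 7 against 1. In ICT against PBS, Bap1 became 0.00145 at 10 counts or more, 0.0382 without the 4 tumours, and 0.0389 and 0.0546 for series 6 and 8 against 5. Pdpn in Tretinoin+ICT against ICT became -0.0521 and -0.0036 for series 2 against 6 and 8. With 1 tumour left out, the Tretinoin against PBS values ran from -0.0243 to 0.025 for Pdpn, from -0.0516 to 0.0312 for Nf2 and from -0.0124 to 0.0201 for Bap1, and the ICT against PBS value of Bap1 from -0.0202 to 0.0152. The cause of these changes was not tested. No paired analysis was possible because the labels carry no replicate numbers shared between groups. Depth limits Upk3b, Calb2 and Cdkn2a, whose few counts could not show moderate changes.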
